A study of Mus musculus with 9 samples.

Results

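The introns described here belong to Mdm4, Mdm2 and Trp53, the genes of the tumour suppressor p53 (Trp53 in the mouse) and of its main pair of negative regulators. They were every intron of the authors' deposited table whose identifier named one of these genes, 20 of 22228 introns, with 6 in Mdm4, 8 in Mdm2 and 6 in Trp53. Reads were from strand-specific sequencing of polyadenylated RNA of v6.5 cells, an established mouse embryonic stem cell line grown on gelatin, with no transgene or deletion named in the labels. The groups were cells given KH-CB19, an inhibitor of the Clk splicing kinases dissolved in dimethyl sulfoxide (DMSO), and cells given the same volume of DMSO alone, each harvested at once (0 h) or after 2 h. Each of the 4 groups held 2 libraries, which the labels call independent biological replicates, and the table gave 1 mean per group, so no spread between cultures stands beside any value. An untreated library was not analysed here. Of the introns of a coding GENCODE M21 transcript, the table held 5 of 10 in Mdm4-201, 7 of 11 in Mdm2-201 and 6 of 10 in Trp53-206, and no other annotated gene overlapped those matched.

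Mdm2 is a ubiquitin ligase that binds p53, blocks its activity as a transcription factor and marks it for degradation, and p53 in turn activates transcription of Mdm2, which closes a feedback loop. Mdm4 is a relative of Mdm2 with little ligase activity of its own that binds p53, represses it and forms heterodimers with Mdm2. Mouse embryos that lack either gene die unless Trp53 is removed as well. A detained intron, in the usage of this study, stays in otherwise spliced, polyadenylated RNA.

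The table held 2 detained introns among the 20, introns 7 and 8 of Mdm4, while 15.5% of all introns in the table carried that class. Intron 7 spans chr1:134901299-134905713 and intron 8 chr1:134900468-134901230, both on the minus strand of mm9 and both between coding exons. They are neighbours, and the exon between them is 68 bases long, not a multiple of 3. It is exon 7 of the GENCODE M21 transcript Mdm4-202, at chr1:133004654-133004721 on the minus strand of GRCm38, a later build than that of the intron coordinates. Of the 14 annotated Mdm4 transcripts, 5 have an exon with exactly these ends. Transcript Mdm4-214, annotated as a target of nonsense-mediated decay, joins the 56-base exon before it directly to the 100-base exon after it. The sequences are shown because the finding in Mdm4 sits on both sides of this exon. In the first, capitals mark the exon and lower case the 12 bases of each neighbouring exon. The second is the junction of Mdm4-214. In the third, read from the annotated retained-intron transcript Mdm4-204, capitals mark the first 6 bases of intron 7 after the end of the exon before it. In the fourth, read from Mdm4-211, capitals mark the last 2 bases of intron 8. All are 5′ to 3′.
Mdm4 exon between introns 7 and 8: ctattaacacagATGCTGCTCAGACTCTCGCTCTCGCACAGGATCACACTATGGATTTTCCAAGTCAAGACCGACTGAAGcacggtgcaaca
Mdm4 junction without that exon: ctattaacacagcacggtgcaaca
Mdm4 intron 7 5′ end: attaacacagGTACGTtctaggtttcttca
Mdm4 intron 8 3′ end: actaacagacacccttccctttcAGcacgg

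Observed reads were first set against the authors' expected reads at 0 h, and an intron is said to pass where the authors' adjusted p was below 0.05. In DMSO, observed and expected reads summed to 1476.5 and 1333 over the introns of Mdm4. The sums were 478.5 and 471.5 in Mdm2, and 557.5 and 557 in Trp53. Expected reads thus followed each gene's own intron reads in sum and are not an outside reference. The ratios of introns within a gene depend on each other. Introns 7 and 8 of Mdm4 held about 3 times the expected reads in both groups, and the other introns of Mdm4 held fewer than expected or did not pass. Intron 7 had authors' means of 572 observed and 181.5 expected reads in KH-CB19, and 868.5 observed and 273 expected reads in DMSO. Its observed reads were 3.15-fold the expected in KH-CB19 (adjusted p = 2.66e-09) and 3.18-fold in DMSO (adjusted p = 3.94e-07) in the authors' deposited table. Intron 8 had authors' means of 235 observed and 71.5 expected reads in KH-CB19, and 347.5 observed and 107.5 expected reads in DMSO. In the authors' deposited table its excess was 3.29-fold in KH-CB19 (adjusted p = 3.58e-05) and 3.23-fold in DMSO (adjusted p = 2.65e-12). By the expected reads the excess was of nearly the same size in both introns and both groups. Against the median reads per kb of the other introns of Mdm4 with a value, the log2 ratio in DMSO was 3.605 for intron 7 and 4.82 for intron 8. In KH-CB19 it was 2.67 for intron 7 and 3.92 for intron 8. Intron 6, at 7.48 reads per kb in DMSO, had no KH-CB19 value. The reference introns thus differ, and these ratios cannot be compared between the groups. The sizes of the excess depend on what the reads are set against. Among detained introns the ratio to expected reads was ordinary, at percentiles 40.3 and 41.8 of the log2 ratios in DMSO. The numbers of reads were high, at percentiles 98.1 and 93.6. Introns 7 and 8 held 82.4% of the DMSO reads of the Mdm4 introns. With the observed and expected sums of the gene so close, little room was left for a higher ratio to expected reads.

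The 4 remaining introns of Mdm4 had log2 ratios of observed to expected reads below 0. Most reads of the gene lay in introns 7 and 8, and the sums of observed and expected reads were close. These low ratios are therefore not independent of the excess in introns 7 and 8. Intron 3, near the 5′ end of the gene, had 11.5 observed and 212.5 expected reads in KH-CB19, and 13.5 observed and 320.5 expected reads in DMSO. These were 18.5-fold fewer than expected in KH-CB19 (adjusted p = 8.91e-21) and 23.7-fold fewer in DMSO (adjusted p = 4.44e-22) in the authors' deposited table. Intron 6, which ends at the 56-base exon where intron 7 begins, had 14 observed and 175.5 expected reads in DMSO and no value in KH-CB19, where the authors marked it as low coverage. That was 12.5-fold fewer than expected in DMSO (adjusted p = 7.95e-17) in the authors' deposited table. Intron 14 was also below expectation in the authors' deposited table, with log2 ratios of −2.66 in KH-CB19 (adjusted p = 1.96e-12) and −2.50 in DMSO (adjusted p = 1.7e-11). Intron 12 did not pass in the authors' deposited table, with log2 ratios of −0.41 in KH-CB19 (adjusted p = 0.22) and −0.45 in DMSO (adjusted p = 0.263). Intron 12 was not matched to an intron of the GENCODE annotation, unlike the other 5.

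**Figure D1:**
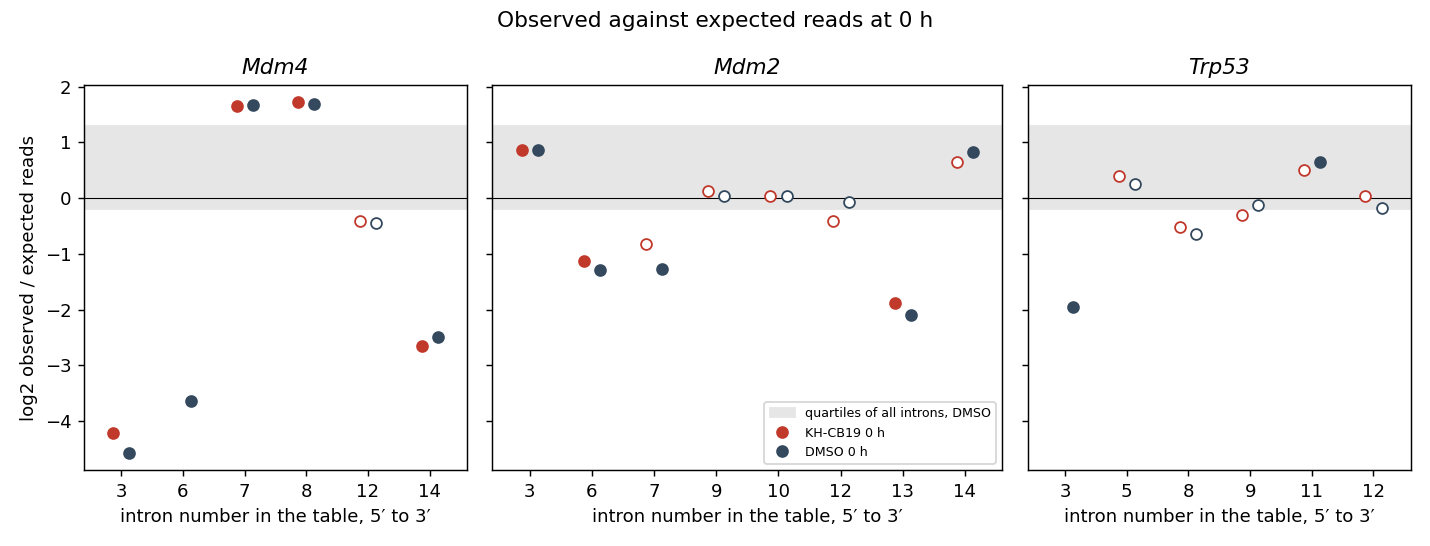
Log2 ratio of observed to expected reads at 0 h (vertical axis) for each intron of Mdm4, Mdm2 and Trp53 in the order of the gene (horizontal axis), in KH-CB19 and in DMSO. Filled points passed the 0.05 threshold by the authors' deposited table, and the grey band spans the quartiles of all introns in DMSO, from −0.19 to 1.30. Introns 7 and 8 of Mdm4 stand at 1.66 to 1.72, above the band, and introns 3, 6 and 14 below −2.

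None of the 8 introns of Mdm2 was classed as detained. Intron 3 of Mdm2 (chr10:117142286-117146755, minus strand of mm9) had 126 observed and 69 expected reads in KH-CB19, and 170 observed and 94 expected reads in DMSO. It was above expectation in the authors' deposited table, 1.83-fold in KH-CB19 (adjusted p = 0.00498) and 1.81-fold in DMSO (adjusted p = 0.00171). Intron 14 of Mdm2, the last in the table, had 57 observed and 36.5 expected reads in KH-CB19, and 88 observed and 49.5 expected reads in DMSO. Its ratio was past the threshold of 0.05 in DMSO only, at 1.56-fold in KH-CB19 (adjusted p = 0.141) and 1.78-fold in DMSO (adjusted p = 0.0176) by the authors' deposited table, with no test of the difference between groups. Below expectation in both groups were intron 13 of Mdm2, 3.67-fold in KH-CB19 (adjusted p = 0.000288) and 4.29-fold in DMSO (adjusted p = 2.85e-06), and intron 6, 2.18-fold in KH-CB19 (adjusted p = 0.0106) and 2.44-fold in DMSO (adjusted p = 0.00067), in the authors' deposited table. Intron 7 of Mdm2 had 13 observed reads in each group, with a log2 ratio of −0.82 in KH-CB19 (adjusted p = 0.24) and −1.28 in DMSO (adjusted p = 0.0279) in the authors' deposited table. Introns 9, 10 and 12 passed in neither group. By GENCODE M21, 94 bases of intron 6 and 46 bases of intron 3 of Mdm2 also fall in exons of protein-coding transcripts. Intron 6 of Mdm2 was not matched to an intron of that annotation, unlike the others of the gene. Introns 10 and 12 of Mdm2 lie within an exon of the annotated transcript Mdm2-205.

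Trp53, whose product both regulators bind, had no detained intron either, and 4 of its 6 introns passed in neither group. Intron 11 of Trp53 (chr11:69403365-69404157, plus strand of mm9) had 144.5 observed and 102 expected reads in KH-CB19, and 197 observed and 125.5 expected reads in DMSO. This was 1.42-fold the expected in KH-CB19 (adjusted p = 0.0975) and 1.57-fold in DMSO (adjusted p = 0.0133) in the authors' deposited table. Intron 3 of Trp53 had 16.5 observed and 64 expected reads in DMSO, 3.88-fold fewer than expected (adjusted p = 5.09e-06), with no KH-CB19 value, by the authors' deposited table. Introns 5, 8, 9 and 12 were these 4, with log2 ratios in the authors' deposited table from −0.51 to 0.39 (KH-CB19) and from −0.65 to 0.26 (DMSO). By GENCODE M21, introns 5, 8 and 9 of Trp53 lie within an exon of the annotated transcript Trp53-205.

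Counted together, 3 of 18 introns with a value were above expectation in KH-CB19 (introns 7 and 8 of Mdm4 and intron 3 of Mdm2), where 27.6% of all introns were. In DMSO 5 of 20 were above, where 28.2% of all introns were, so the number above expectation was not large for the size of the set. Introns of 1 gene share its level and are not replicates, and within a gene the numbers above and below expectation are not independent. Below expectation were 4 of 18 in KH-CB19, beside 8.93% of all introns, and 7 of 20 in DMSO, beside 10.9%. The median log2 ratio of the members was −0.13 in KH-CB19 and −0.15 in DMSO, against 0.60 (KH-CB19) and 0.53 (DMSO) over all introns. Of the 18 introns with both values, 17 had the same sign in both groups, the exception being intron 12 of Trp53, which passed in neither.

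Reads per kb of intron allow levels to be compared between introns and genes. In KH-CB19 at 0 h intron 8 of Mdm4 had 308 observed reads per kb and intron 7 had 130. In DMSO intron 8 had 455 observed reads per kb and intron 7 had 197. The 95% counting intervals, which treat the 0 h means as means of 2 unscaled counts and cover counting error only, were 281 to 337 and 122 to 137 reads per kb in KH-CB19, and 422 to 491 and 188 to 206 in DMSO. Intron 8 was thus 2.38-fold as dense as intron 7 in KH-CB19 and 2.32-fold in DMSO. Intron 7 in turn was 26.3-fold as dense in DMSO as intron 6, from which only the 56-base exon separates it. The lowest in Mdm4 was intron 3, at 1.90 reads per kb in KH-CB19 and 2.23 in DMSO. From the lowest to the highest intron the level per kb differed 162-fold in KH-CB19 and 205-fold in DMSO.

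In Trp53 the levels per kb were more even, 1.56-fold from lowest to highest over 5 introns in KH-CB19 and 4.26-fold over 6 in DMSO. The highest, intron 11, had 182 observed reads per kb in KH-CB19 (counting interval 162 to 204) and 248 in DMSO (224 to 274). That level per kb was above that of the detained intron 7 of Mdm4 in both groups, with counting intervals that did not overlap, yet intron 11 of Trp53 was not classed as detained. Its expected level was 129 reads per kb in KH-CB19 and 158 in DMSO, against 41.1 in KH-CB19 and 61.8 in DMSO for intron 7 of Mdm4. In DMSO introns 9, 5 and 12 of Trp53 followed at 202, 196 and 169 reads per kb, then intron 8 at 132, each overlapping the one before it in counting interval, and intron 3 at 58.3, which did not. Mdm2 was the sparsest of the 3 genes by its highest intron: intron 10 had 49.8 observed reads per kb in KH-CB19 and 66.5 in DMSO. Intron 14 of Mdm2 followed at 41.9 in KH-CB19 and 64.8 in DMSO, within the counting interval of intron 10, and intron 13 was lowest, at 5.54 in KH-CB19 and 6.46 in DMSO.

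**Figure D2:**
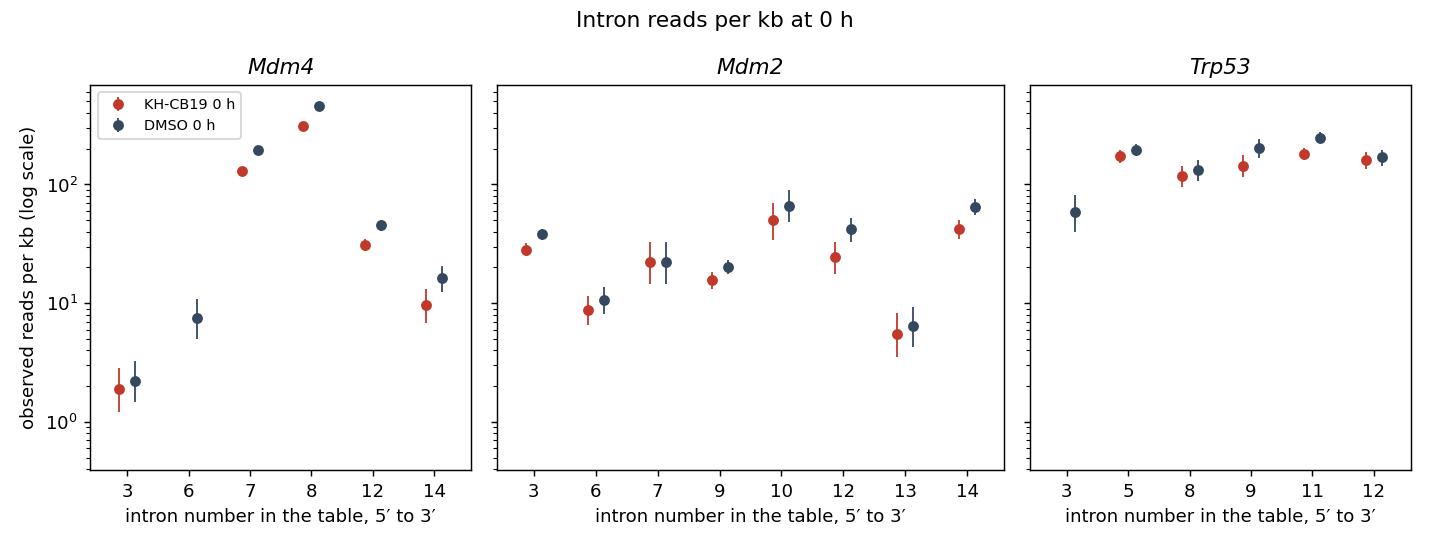
Observed reads per kb of intron at 0 h (vertical axis, log scale) for each intron of Mdm4, Mdm2 and Trp53 in the order of the gene (horizontal axis), in KH-CB19 and in DMSO. Points are the authors' group means divided by intron length and bars are 95% counting intervals. Introns 7 and 8 of Mdm4 stand at 130 to 455 reads per kb, above the other introns of the gene at 2 to 45, while those of Trp53 with values in both groups stay between 117 and 248.

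As a measure of unevenness, the largest minus the smallest log2 ratio of observed to expected reads in DMSO was 6.26 in Mdm4, 2.95 in Mdm2 and 2.61 in Trp53. Over the 955 genes with at least 6 such introns the median was 3.18, and Mdm4 stood at percentile 95, Mdm2 at 42.9 and Trp53 at 30.3. This measure was chosen after the values were seen. It tends to grow with the number of introns, and the genes were not matched on that number, which was 6 in Mdm4 and Trp53 and 8 in Mdm2. The 2 detained introns of Mdm4 held 82.7% of the observed reads of its introns in KH-CB19 and 83.1% in DMSO, over the 5 introns with both values. Within each of the 3 genes, longer introns had higher expected reads.

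At 0 h, when cells were harvested at once after the compound was added, the KH-CB19 group held fewer reads in most introns. Over 18080 introns with both values, the log2 ratio of observed reads in KH-CB19 to DMSO had a median of −0.32 (quartiles −0.52 and −0.11). The 0 h means are unscaled, so ratios are given relative to that median. The log2 ratio was −0.60 for intron 7 of Mdm4 and −0.56 for intron 8, or −0.28 and −0.24 relative to the median. Introns 12 and 14 of Mdm4 were also below the median, at −0.22 and −0.43 relative to it, and intron 3, with its few reads, was above it by 0.09. The expected reads of Mdm4 had nearly 1 ratio for the whole gene, from −0.593 to −0.588. That was −0.26 relative to the median ratio of expected reads over all introns, −0.33, and at percentile 7.12 of those ratios. The 5 introns of Mdm4 with both values summed to 975.5 reads in KH-CB19 and 1462.5 in DMSO, −0.26 relative to the median of observed reads. Since expected reads followed the observed reads of a gene in sum, their ratio restates this value and is not a second measure of it. Mdm2 introns summed to 351.5 reads in KH-CB19 and 478.5 in DMSO, −0.12 relative to the median of observed reads. Those of Trp53 with both values summed to 443.5 in KH-CB19 and 541 in DMSO, 0.04 relative to it. Whether these differences exceed the spread between cultures could not be tested on group means.

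**Figure D3:**
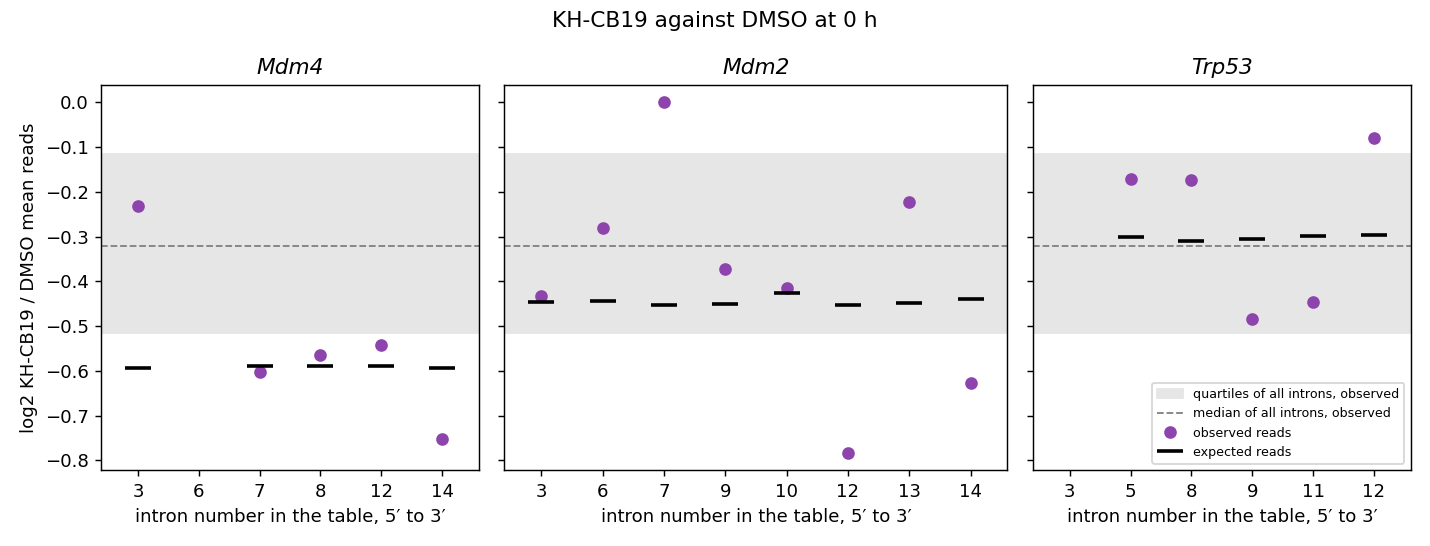
Log2 ratio of KH-CB19 to DMSO mean reads at 0 h (vertical axis) for the introns of Mdm4, Mdm2 and Trp53 (horizontal axis), as observed reads (points) and expected reads (dashes). The grey band and dashed line give the quartiles and the median, −0.32, of observed reads over all introns. Expected reads of Mdm4 lie below the band at −0.59, and those of Trp53 near the median at −0.30. Expected reads follow the summed observed reads of each gene and are not a separate measure.

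The main comparison was KH-CB19 against DMSO at 2 h, for which the table gave values only for detained introns, so that among the members only introns 7 and 8 of Mdm4 could be compared. The 2 h means were scaled by the authors and are called normalised reads. Intron 7 fell to an authors' mean of 533 normalised reads in KH-CB19, against 830 in DMSO. By the authors' deposited table this was 1.56-fold lower (log2 ratio −0.64, adjusted p = 0.00802), and the response class for it reads "More", as for all introns that fell. Intron 8 had an authors' mean of 228 normalised reads in KH-CB19 and 311 in DMSO. By the authors' deposited table its log2 ratio was −0.45, which did not pass (adjusted p = 0.175). Both ratios were below 0, with a difference of −0.19 in log2 ratio between intron 7 and intron 8 that was not tested. Of the reads in both introns, intron 7 held 70.0% in KH-CB19 and 72.7% in DMSO at 2 h, while at 0 h it held 70.9% in KH-CB19 (exact binomial 95% interval 68.6% to 73.1%) and 71.4% in DMSO (69.6% to 73.2%). With 1 of 2 tested introns past the threshold, where 9.64% of all detained introns changed (4.17% fell and 5.47% rose), the set is too small to read a share from.

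The same introns also had fewer reads in KH-CB19 at 0 h. Relative to the median of the 3422 detained introns with both values, the 0 h log2 ratio was −0.24 for intron 7 and −0.20 for intron 8 of Mdm4, while the 2 h ratios were −0.64 and −0.45 with a median of 0.00 over detained introns. The 2 h minus the centred 0 h value was −0.40 for intron 7 and −0.25 for intron 8, at percentiles 26.3 and 35.6 of the detained introns. No other intron of Mdm4, and none of Mdm2 or Trp53, had a 2 h value, so the part of the lower amount of Mdm4 reads at 0 h, and of any change in Mdm4 transcript, in the fall of intron 7 was not tested. In bulk RNA a change in fewer cells and a smaller change in all cells cannot be told apart.

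The fall of intron 7 was small among those that passed, and rested on many reads. Of the 144 introns that fell in the authors' deposited table, 8 had a smaller fall, and the median log2 ratio of all that fell was −1.16. Its log2 ratio was at percentile 12.3 of all detained introns and that of intron 8 at 19.8. A lower ratio than that of intron 7 was listed for 424 detained introns, of which 289 did not pass, with a median of 41.6 normalised reads in DMSO. Intron 7, at percentile 98.6 by reads in DMSO at 2 h, was 1 of 48 detained introns with at least 830 normalised reads there, and 5 of these 48 fell.

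**Figure D4:**
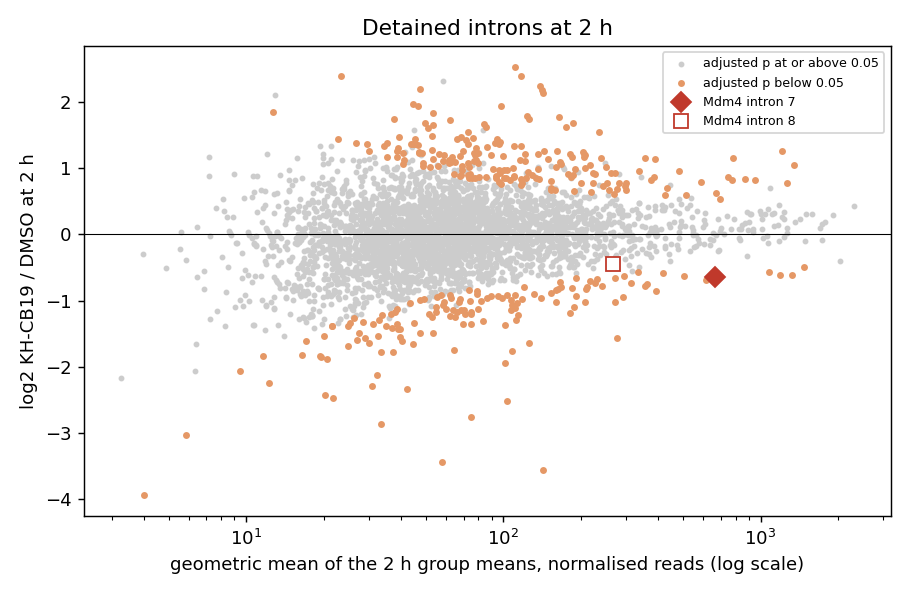
Log2 ratio of KH-CB19 to DMSO at 2 h (vertical axis) against the geometric mean of both groups' normalised reads (horizontal axis, log scale) for 3454 detained introns. Orange points passed the 0.05 threshold by the authors' deposited table. Intron 7 of Mdm4 (filled diamond) lies at −0.64 among the introns with most reads, and intron 8 (open square) at −0.45.

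By the likeness of 3 values (log2 observed to expected reads in both 0 h groups, and the 2 h log2 ratio), the introns nearest to intron 7 of Mdm4 among 2116 well-covered detained introns of other genes were intron 9 of Diexf, intron 8 of Aagab and intron 13 of Unk. Their distances were 0.048, 0.050 and 0.082 log2 units, and that of intron 8 of Mdm4 was 0.20. Intron 9 of Diexf had 57.5 normalised reads in KH-CB19 and 87.3 in DMSO at 2 h, and the authors' deposited table gave it an adjusted p of 0.214. The log2 ratios at 2 h were −0.60 in Diexf, −0.68 in Aagab and −0.56 in Unk in the authors' deposited table, and none of these 3 passed, with far fewer reads than intron 7 of Mdm4.

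Among a list of 60 regulators and partners of p53, members included, 28 genes had 39 detained introns. Of these 39, 2 fell and 2 rose, 10.3% against 9.64% of all detained introns, and the median log2 ratio was 0.05 beside 0.00. Besides intron 7 of Mdm4, intron 19 of Mtbp, which encodes a protein that binds Mdm2, fell to 13.3 normalised reads in KH-CB19, against 34.9 in DMSO (log2 ratio −1.39; adjusted p of 0.0489 given in the authors' deposited table). Intron 12 of Trim24, the gene of a ubiquitin ligase that targets p53, rose to 776 normalised reads in KH-CB19, against 448 in DMSO (log2 ratio 0.79; adjusted p of 0.00795 given in the authors' deposited table). Intron 66 of Huwe1, another ubiquitin ligase with p53 among its substrates, rose to 88.7 normalised reads in KH-CB19, against 31.6 in DMSO (log2 ratio 1.49; adjusted p of 0.0442 given in the authors' deposited table). The other 2 detained introns of Huwe1 did not pass in the authors' deposited table, with log2 ratios of 0.68 for intron 90 (adjusted p of 0.248) and −1.01 for intron 102 (adjusted p of 0.459). Intron 102 had only 7.21 normalised reads in KH-CB19 and 14.5 in DMSO, so its sign rests on few reads.

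The next smallest adjusted p-values among other genes of the list belonged to introns that did not pass. Intron 38 of Usp7, the gene of a deubiquitinase of Mdm2 and p53, had 89.3 normalised reads in KH-CB19 and 50.5 in DMSO (log2 ratio 0.82; adjusted p of 0.062 given in the authors' deposited table). Intron 14 of Chek2, a kinase that phosphorylates p53 after DNA damage, had 29.8 in KH-CB19 and 55.1 in DMSO (log2 ratio −0.89; adjusted p of 0.122 given in the authors' deposited table). The other detained intron of Chek2, intron 15, had the opposite sign, with 80.6 in KH-CB19 and 64.3 in DMSO (log2 ratio 0.33, adjusted p of 0.613 given in the authors' deposited table). Of 41 p53 targets and relatives, 7 genes had 8 detained introns, none of which passed, with a median log2 ratio of 0.37. Intron 8 of Sesn2, a stress-induced inhibitor of mTORC1 signalling, had 32.3 normalised reads in KH-CB19 and 53.1 in DMSO (adjusted p of 0.261 given in the authors' deposited table). Intron 2 of Ddb2, a DNA damage recognition gene, had 37.5 in KH-CB19 and 21.4 in DMSO (adjusted p of 0.265 given in the authors' deposited table).

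**Figure D5:**
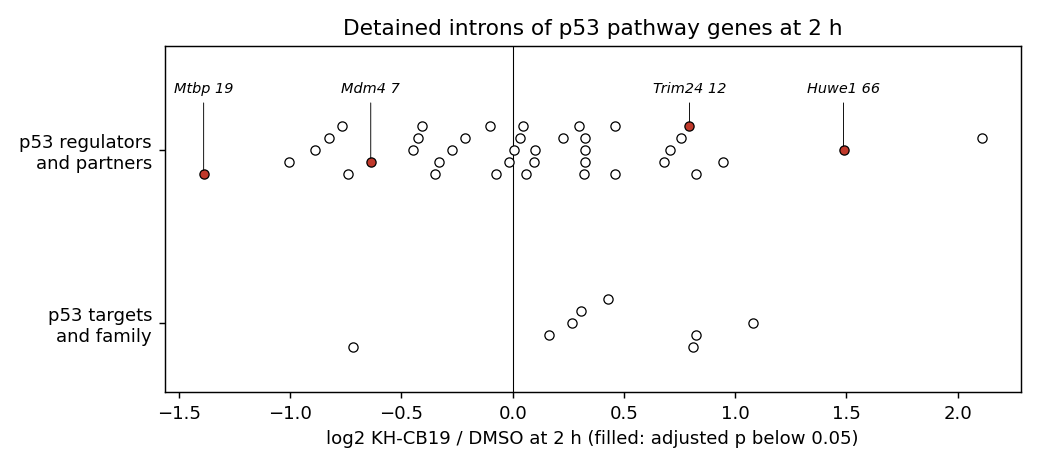
Log2 ratio of KH-CB19 to DMSO at 2 h (horizontal axis) for each detained intron of 39 in p53 regulators and partners (upper row) and of 8 in p53 targets and family (lower row). Filled points passed the 0.05 threshold by the authors' deposited table; the 4 of these are all in the upper row, 2 on each side of 0, and points are spread vertically only to separate them.

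The observed 0 h means summed to 1002850 reads over 18740 introns in KH-CB19 and 1286589 over 21568 in DMSO, and the 2 h means over 3454 detained introns to 392295 normalised reads in KH-CB19 and 369104 in DMSO. RNA integrity numbers were between 8.8 and 9.4, the lowest in KH-CB19 at 2 h. Of 16 embryonic stem cell markers, 15 had an intron in the table, Pou5f1 and Nanog among them, against 1 of 10 fibroblast markers (Fn1) and 1 of 14 markers of germ layers and trophoblast (Tfap2c). Fn1, the gene of fibronectin, had 14 introns in the table, of which 5 were detained, and these summed to 2179 normalised reads in KH-CB19 and 1896 in DMSO at 2 h. Its intron 34 fell to 57.6 normalised reads in KH-CB19, against 116 in DMSO (log2 ratio −1.01; adjusted p of 0.00763 given in the authors' deposited table), and the other 4 did not pass, the highest being intron 45 at 1268 in KH-CB19 and 1007 in DMSO. The 6 detained introns of the stem cell markers summed to 3619 normalised reads in KH-CB19 and 2904 in DMSO, and 1 of them, intron 16 of Tfcp2l1, rose (log2 ratio 0.77; adjusted p of 0.0271 given in the authors' deposited table). The part of other cell types in the values of the Mdm4, Mdm2 and Trp53 introns was not tested.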

How the data were processed

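Per the submitters' processing notes, processing used DESeq, TopHat2 2.0.9, Bowtie 1.0.0, Cufflinks 2.1.1, bedtools 2.17.0 and SAMtools 0.1.19, on build mm9. How expected reads were made and introns classed is not given in the sources used here. In each of the 3 genes the expected reads rose with intron length and summed to near the observed reads in DMSO. Per the file headers, the authors deposited mean observed and expected read counts at 0 h (multiples of 0.5, so apparently unscaled), a normalised mean signal at 2 h for detained introns, log2 ratios, and adjusted p-values, taken to be from DESeq. With group means only, no new test per intron was made, and the authors' adjusted p below 0.05 was the threshold.

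Computed here were reads per kb, exact 95% Poisson and binomial intervals, percentiles and distances (Python 3.11.15, pandas 2.3.3, SciPy 1.17.1). Reads are not independent molecules, so intervals cover counting error only. The table counts starts from 0, and starts are printed counted from 1. Introns were matched to GENCODE M21 by length and 1 offset per gene, which matched 18 of 20. Named introns were all members, list introns past the threshold, up to 2 further genes per list with the smallest 2 h adjusted p, and the 3 nearest introns averaging at least 50 reads. The members and lists were chosen with earlier results of these data known. Unadjusted p-values were recovered assuming Benjamini-Hochberg adjustment. Recovered values are exact or upper bounds by how they are computed, so that 0 lay below the true ones in 20 simulated sets of 3454 was fixed in advance. Adjusting 2118 of each set anew gave 2303 calls in all from recovered and 2303 from true p-values. Those 2118 were drawn at random, whereas the real 2118 were chosen by reads. The simulation thus checks the computation only and gives no support to the p-value of any intron.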

Additional observations from a re-analysis of the deposited data

How the results depend on the processing

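Intron 7 of Mdm4, the 1 member intron that changed at 2 h, also passed a threshold of 0.01. Scaling to equal sums (log2 ratio −0.73), centring on the median and pseudocounts of 0.1, 1 and 10 reads kept the sign of its ratio, but these settings give no p-value and do not test the call. P-values recovered from the authors' adjusted values were adjusted anew here, by Benjamini-Hochberg, over the 2118 detained introns averaging at least 50 reads. This gave intron 7 an adjusted p of 0.00567, computed here, where the authors' own adjusted p was 0.00802. At a threshold of 0.01 the introns above expectation numbered 3 in KH-CB19 and 3 in DMSO, against 3 and 5 at 0.05. Against the median level per kb of the other introns of the gene, in place of the expected reads, all introns past the threshold at 0 h kept their direction, but the ratio moved by over 1.5-fold for 3 of 7 in KH-CB19 and 5 of 12 in DMSO. For introns 7 and 8 of Mdm4 in DMSO the log2 ratios were 3.605 and 4.82, in place of 1.67 and 1.69. The log2 ratio of summed member reads at 0 h, −0.49 unscaled, was −0.17 both scaled to equal sums and centred on the median, beside a median of −0.32 over all introns. Intron 8 of Mdm4 was 28.2-fold as dense as the median of the other introns in DMSO, and 7.57-fold as dense as their mean weighted by length, in which intron 7 counts most. No paired analysis was possible because the table holds 1 mean per group, and for the same reason no replicate could be left out. Introns of Mdm2 and Trp53 could not be compared at 2 h.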

Other observations

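Detained introns on both sides of 1 exon, as in Mdm4, were looked for after its values were seen. With exons of up to 500 bases and consecutive intron numbers, 268 such pairs lay in 249 genes, 10.3% of the 2427 genes with a detained intron. The exon between them had a median length of 117 bases, 19% were shorter than the 68 bases of Mdm4, and 171 of 268 (63.8%) were not a multiple of 3. At 2 h the introns of a pair differed by a median of 0.36 in log2 ratio without regard to sign, against 0.19 in Mdm4. The difference was smaller than in Mdm4 in 28.7% of the pairs. Pairs were not matched by reads, and introns 7 and 8 of Mdm4 stood at percentiles 98.6 and 94.6 by DMSO reads at 2 h. In 174 of the 268 pairs both log2 ratios of KH-CB19 to DMSO had the same sign. In 94 of the pairs (35.1%), Mdm4 included, both were below 0, and in the rest of the 174 both were above 0.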
